A study of Rattus norvegicus with 3 samples.

Results

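The oligoadenylate synthetase family was represented by 5 genes, Oas1a, Oas2, Oas3, Oasl and Oasl2, out of 30560 features counted in single nuclei of rat brain. Members were taken by symbol from the feature tables, and their raw UMI counts (unique molecular identifiers, 1 for each captured RNA molecule) were read in every deposited barcode and in cell classes gated by marker UMIs. The animals were wild-type females of the Crl:CD(SD) strain, which is outbred, 12 weeks old, and each had 1 intraperitoneal injection 7 h before the brain was taken. The groups were poly(I:C) at 12 mg/kg, a synthetic duplex used as a mimic of RNA viruses, LPS at 5 mg/kg, a bacterial cell wall lipopolysaccharide, and saline. Nuclei of 4 animals were pooled in each group and made 1 library, so every comparison set 1 library against 1 and had no replicate check.

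Oligoadenylate synthetases are interferon-induced sensors of duplex RNA in the cytoplasm. When RNA binds Oas1, Oas2 or Oas3 proteins they join ATP into short oligoadenylates, and these act as second messengers of the antiviral response. In mouse, Oasl2 keeps the enzyme activity and carries ubiquitin-like domains, whereas Oasl1, the mouse counterpart of human OASL, has lost it, and human OASL has been described to act on the RNA sensor RIG-I.

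The 300-base promoter windows of the members differ in their copies of an interferon-response motif, and they are shown because all 5 members had more UMIs after poly(I:C) than after saline. The windows run from 250 bases before to 50 bases after the annotated start and come from RefSeq on build GRCr8, whereas the counts were made on mRatBN7.2. The window of Oas1a is chr12:41330216-41330515 (+ strand), that of Oas3 chr12:41439482-41439781 (+), that of Oasl chr12:47356243-47356542 (-) and that of Oasl2 chr12:47383136-47383435 (-), and 4 of the 5 members had a window in the table. Capitals mark matches to GAAANNGAAA on either strand, a pattern that 1312 of all 33469 promoter windows (3.92%) held.
Oas1a: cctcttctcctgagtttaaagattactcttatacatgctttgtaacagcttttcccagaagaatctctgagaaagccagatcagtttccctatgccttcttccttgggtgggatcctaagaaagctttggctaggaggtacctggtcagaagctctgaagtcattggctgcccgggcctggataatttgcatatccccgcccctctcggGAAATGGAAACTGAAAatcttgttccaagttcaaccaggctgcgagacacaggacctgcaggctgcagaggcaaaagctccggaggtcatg
Oas3: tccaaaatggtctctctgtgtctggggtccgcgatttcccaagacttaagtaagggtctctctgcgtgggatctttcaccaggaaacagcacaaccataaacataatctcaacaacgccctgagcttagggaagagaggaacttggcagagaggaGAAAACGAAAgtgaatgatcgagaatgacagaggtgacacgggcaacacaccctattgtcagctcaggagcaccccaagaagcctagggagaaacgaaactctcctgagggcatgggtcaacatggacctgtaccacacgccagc
Oasl: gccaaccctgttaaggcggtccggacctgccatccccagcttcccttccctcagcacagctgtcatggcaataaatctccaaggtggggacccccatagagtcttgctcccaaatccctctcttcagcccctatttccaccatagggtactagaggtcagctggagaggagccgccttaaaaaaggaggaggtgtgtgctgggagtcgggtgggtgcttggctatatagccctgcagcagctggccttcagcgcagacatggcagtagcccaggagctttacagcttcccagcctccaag
Oasl2: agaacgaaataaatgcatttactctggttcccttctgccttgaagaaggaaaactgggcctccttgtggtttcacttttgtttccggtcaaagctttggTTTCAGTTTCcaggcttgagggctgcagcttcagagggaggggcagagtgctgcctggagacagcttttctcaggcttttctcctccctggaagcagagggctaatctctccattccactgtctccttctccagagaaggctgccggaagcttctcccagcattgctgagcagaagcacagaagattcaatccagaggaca

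The Oas1a window held 2 overlapping matches, which began 41 and 35 bases before the start, and the Oas3 window held 1 match at 95 bases. In the Oasl2 window the match lay on the other strand, at 151 bases before the start. The Oasl window held 0 matches, which says only that these letters were not in these 300 bases. Of 10 Oas windows in the table, 5 held a match. These matches describe the sequence, and binding of a factor was not measured.

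The poly(I:C), LPS and saline libraries held 15001, 11211 and 25435 barcodes and 21340578, 29763787 and 35532360 UMIs, with medians of 1264, 2436 and 1165 UMIs per barcode. Markers of a general neuronal list of 6 genes were present in all 3 libraries, at a summed 6777, 6362 and 6473 CPM. CPM are UMIs divided by the library total and multiplied by 1000000. Summed endothelial markers stood at 128.4, 124.4 and 177.2 CPM and neutrophil markers at 15.1, 10.7 and 1.52 CPM in the same order, and their part in the library-wide values below was not tested. Over all barcodes, fewer nuclei of a type and less RNA per nucleus cannot be told apart. The libraries shared 247 to 550 barcode sequences by pair, and without them the family ratios were 30.7 for poly(I:C) over saline, 5.02 for LPS over saline and 6.03 for poly(I:C) over LPS, against 30.6, 5.05 and 6.07 with them.

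All 5 members had a higher CPM after poly(I:C) than after saline. Together they had 1270 UMIs (59.5 CPM) after poly(I:C), against 69 UMIs (1.94 CPM) after saline. This is a ratio of 30.6, with an exact 95% interval of 24.0 to 39.6 that covers counting error only. The CPM of genes are not divided by length here, so the CPM of different genes are not ranked as expression levels. Shares of the family given below are shares of counted UMIs, and the family sum is weighted to the members with most UMIs.

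Oas1a, a catalytic synthetase, had 166 UMIs (7.78 CPM) after poly(I:C), against 8 (0.225 CPM) after saline. Its ratio was 34.5 (17.1 to 81.3). Oas2, the larger synthetase with a repeated catalytic unit, had 18 UMIs after poly(I:C), against 2 after saline, a ratio of 15.0 (3.59 to 133.2). The intervals of Oas1a and Oas2 overlapped widely. Oas3, the longest member, had 7 UMIs after poly(I:C), against 0 after saline, and was at least 3.89-fold higher by a floor of 3 UMIs in the saline library. Oasl, of the ubiquitin-like branch, had 283 UMIs (13.3 CPM) after poly(I:C), against 13 (0.366 CPM) after saline, a ratio of 36.2 (20.9 to 68.9). Oasl2 had 796 UMIs (37.3 CPM) after poly(I:C), against 46 (1.29 CPM) after saline, a ratio of 28.8 (21.4 to 39.7). The 3 members with most UMIs, Oas1a, Oasl and Oasl2, thus had ratios of 28.8 to 36.2 with overlapping intervals. Of the 4 members with at least 10 UMIs in the pair of libraries, all 4 were at least 2-fold higher after poly(I:C), where 2.87% of the 17268 genes tested were, and 0 of 4 were 2-fold lower, where 4.37% of genes were. The median log2 ratio was 4.98 over those 4 members and -0.09 over all genes tested. Oas3 had fewer than 10 UMIs and is not in that count. In nuclei with at least 1000 genes the family ratio was 19.6.

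**Figure D1:**
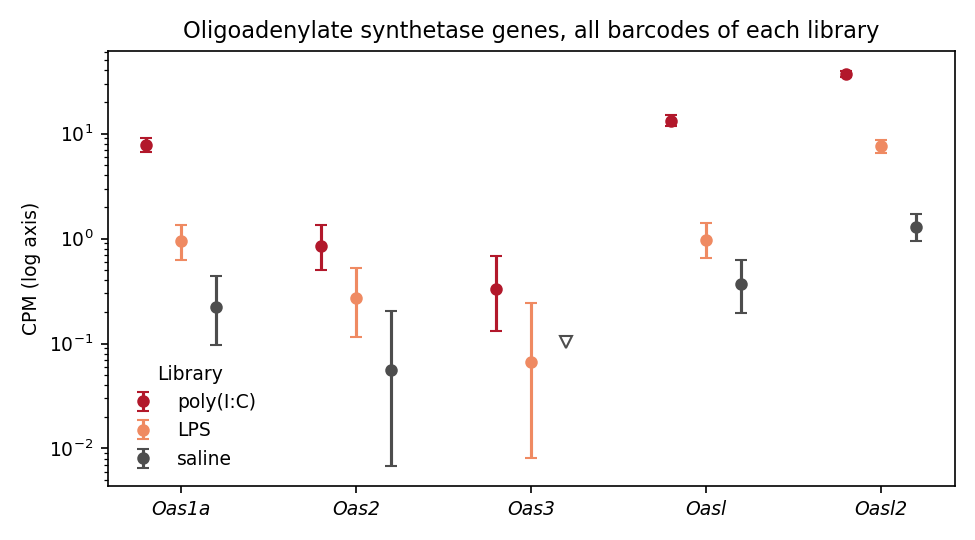
Level of each member over all barcodes, in CPM on a log axis, for the poly(I:C), LPS and saline libraries from left to right. Points are the libraries, bars are exact 95% Poisson intervals, and the open triangle marks the upper limit for Oas3 at 0 UMIs after saline. The poly(I:C) point is the highest for all 5 genes.

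LPS gave a smaller difference from saline, and Oasl2 carried most of it. The family had 292 UMIs (9.81 CPM) after LPS, against 69 (1.94 CPM) after saline, a ratio of 5.05 (3.87 to 6.67). Oasl2 had 225 UMIs (7.56 CPM) after LPS, against 46 (1.29 CPM) after saline, a ratio of 5.84 (4.24 to 8.20). Oas1a had 28 UMIs after LPS, against 8 after saline, a ratio of 4.18 (1.85 to 10.6). Oasl had 29 UMIs after LPS, against 13 after saline, a ratio of 2.66 (1.34 to 5.58), and this interval reaches below a 2-fold difference. Oas2 had 8 UMIs after LPS, against 2 after saline, and its interval (0.953 to 46.2) includes equality. Oas3 had 2 UMIs after LPS and 0 after saline, too few for a ratio. All 4 members with at least 10 UMIs were at least 2-fold higher after LPS, where 3.24% of 17539 genes were (2.85% were 2-fold lower), with a median log2 ratio of 2.16 against -0.03 over all genes tested. The family ratio of LPS over saline was 2.47 in nuclei with at least 1000 genes, 9.60 with UMIs divided by barcodes in place of total UMIs, and 3.48 without Oasl2. Both comparisons use the same saline library.

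Set directly against LPS, poly(I:C) gave 6.07 times the family level (5.34 to 6.91). Divided by barcodes that ratio was 3.25, and without Oasl2 it was 9.87. The members did not share 1 ratio. Oasl was 13.6-fold higher after poly(I:C) than after LPS (9.27 to 20.7), whereas Oasl2 was 4.93-fold higher (4.25 to 5.75), and these intervals do not overlap. Oas1a lay between them at 8.27-fold (5.52 to 12.8), with an interval that overlaps that of Oasl and, at its lower end, that of Oasl2. Oas2 stood at 3.14-fold (1.30 to 8.34), and the interval of Oas3 (0.929 to 48.2) includes equality. Oasl2 accordingly made up 62.7% of family UMIs after poly(I:C), 77.1% after LPS and 66.7% after saline, while Oasl made up 22.3%, 9.93% and 18.8%. All 4 members tested were at least 2-fold higher after poly(I:C) than after LPS, where 2.18% of 17016 genes were (3.78% were 2-fold lower), with a median log2 ratio of 2.68 against -0.06 over all genes tested.

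The rat genome carries several near-identical Oas1 copies, and 7 further features have a symbol that starts with Oas. How reads were divided between Oas1a and these copies is not given in the sources used here, so the count of a single Oas1 copy is uncertain. The feature with most UMIs among them was 1 of 2 listed as Oas1k, with 527, 119 and 24 UMIs after poly(I:C), LPS and saline. Its ratios were 36.6 (24.3 to 57.6) for poly(I:C) over saline and 5.92 (3.79 to 9.60) for LPS over saline. Oas1i had 196, 26 and 7 UMIs, and its poly(I:C) over saline ratio was 46.6 (22.2 to 117.5). These values lie within the intervals of Oas1a in both comparisons. Oas1f did not follow this order, with 14, 5 and 13 UMIs, and both its ratios to saline, 1.79 (0.782 to 4.14) for poly(I:C) and 0.459 (0.128 to 1.37) for LPS, have intervals that include equality. Oas1e had 11, 3 and 0 UMIs, the second Oas1k feature 7, 5 and 4, Oas1h 2, 1 and 4, and Oas1d 1, 0 and 0. Over all 12 features the ratios were 27.9, 4.45 and 6.27 for poly(I:C) over saline, LPS over saline and poly(I:C) over LPS. The RefSeq promoter window of Oas1i held 2 overlapping motif matches, at 36 and 30 bases before the start, whereas those of Oas1d, Oas1e, Oas1f and Oas1h held 0. Oas1e, without a match, was at least 6.1-fold higher after poly(I:C) than after saline. No window was listed for Oas1k, and that of Oas1b, which was not among the counted features, held 2 matches. A relation of matches to ratios was not tested.

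Of 4 other genes of the oligoadenylate pathway, 1 was at least 2-fold higher in each comparison with saline. Over all genes tested, 2.87% were after poly(I:C) and 3.24% after LPS. Abce1, an ATP-binding protein that acts in ribosome recycling, had ratios of 1.05 (0.971 to 1.14) for poly(I:C) over saline and 1.07 (0.997 to 1.15) for LPS over saline. Pde12, a phosphodiesterase that degrades oligoadenylates, had 0.787 (0.602 to 1.02) and 1.06 (0.854 to 1.32). Akap7, which in mouse has a like phosphodiesterase activity, had 1.07 (0.998 to 1.14) and 1.05 (0.987 to 1.12). Zc3hav1, an RNA-binding antiviral protein, was the gene that passed 2-fold, with 608, 230 and 116 UMIs after poly(I:C), LPS and saline and ratios of 8.73 (7.14 to 10.7) and 2.37 (1.89 to 2.98).

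Other sensors of RNA and DNA separated the agents. Of 10 sensors and adaptors tested, 7 were at least 2-fold higher after poly(I:C) than after saline, where 2.87% of all genes tested were. Their median log2 ratio was 2.38. After LPS 0 of 9 passed 2-fold over saline, with a median of 0.52, where 3.24% of all genes tested passed. The synthetases had 4 of 4, among them Oas2 with 8 against 2 UMIs. Of 7 Oas features tested for LPS over saline, 6 were 2-fold higher and 1 was 2-fold lower. No significance test was run for those counts, since each group is 1 library. Ifih1, the MDA5 sensor of long RNA duplexes, had 917, 191 and 120 UMIs after poly(I:C), LPS and saline, with ratios to saline of 12.7 (10.5 to 15.5) and 1.90 (1.50 to 2.41). Ddx58, which encodes RIG-I, had 834, 126 and 86 UMIs, with ratios of 16.1 (12.9 to 20.4) and 1.75 (1.32 to 2.33). Eif2ak2, the RNA-activated kinase PKR, had ratios of 8.26 (7.32 to 9.35) and 1.57 (1.35 to 1.82). The interval of Oasl2 for LPS over saline (4.24 to 8.20) lies above those of these 3 sensors, while that of Oasl (1.34 to 5.58) overlaps all 3. Adar, an RNA editing enzyme, had ratios of 1.27 (1.21 to 1.33) and 0.964 (0.920 to 1.01).

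Among genes of interferon signalling, 5 of 10 were at least 2-fold higher after poly(I:C) and 4 of 10 after LPS, each against saline. The shares over all genes tested, for this and the lists below, were 2.87% and 3.24%. Irf7, a transcription factor of the interferon response, had 530, 241 and 20 UMIs after poly(I:C), LPS and saline, with ratios to saline of 44.1 (28.3 to 72.8) and 14.4 (9.11 to 24.0). Usp18, a negative regulator of the interferon receptor, had 38.8 (30.1 to 51.0) and 3.13 (2.32 to 4.28). Stat2, a part of the complex that binds interferon-response motifs, had 3.04 (2.74 to 3.38) and 1.29 (1.15 to 1.45). The receptor subunit Ifnar1 had 0.730 (0.673 to 0.791) and 0.792 (0.738 to 0.851). Interferon genes themselves were hardly counted at 7 h, with 2, 4 and 2 UMIs of Ifnb1 after poly(I:C), LPS and saline, and 0 of 2 interferon genes tested were 2-fold higher in either comparison. On the list of other interferon-stimulated genes, 29 of 30 passed 2-fold after poly(I:C) and 18 after LPS, with median log2 ratios of 3.55 and 1.71. The 4 of them with most UMIs had poly(I:C) and LPS ratios to saline of 7.40 and 1.64 for Herc6, 13.0 and 6.26 for Ifitm3, 1.80 and 1.47 for Ifi27, and 39.4 and 6.89 for Ifi44. The members' medians of 4.98 and 2.16 were higher than those of this list, as a description of these libraries. They rest on 4 genes, among them Oas2 with 2 UMIs after saline. Single genes of the list stood on both sides of the members. For poly(I:C) over saline Rsad2 (282.2) and Mx1 (202.1) lay above the highest member, Oasl (36.2). Herc6 and Ifi27 lay below all 4 members tested. For LPS over saline Gbp2 (23.0) lay above the highest member, Oasl2 (5.84).

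**Figure D2:**
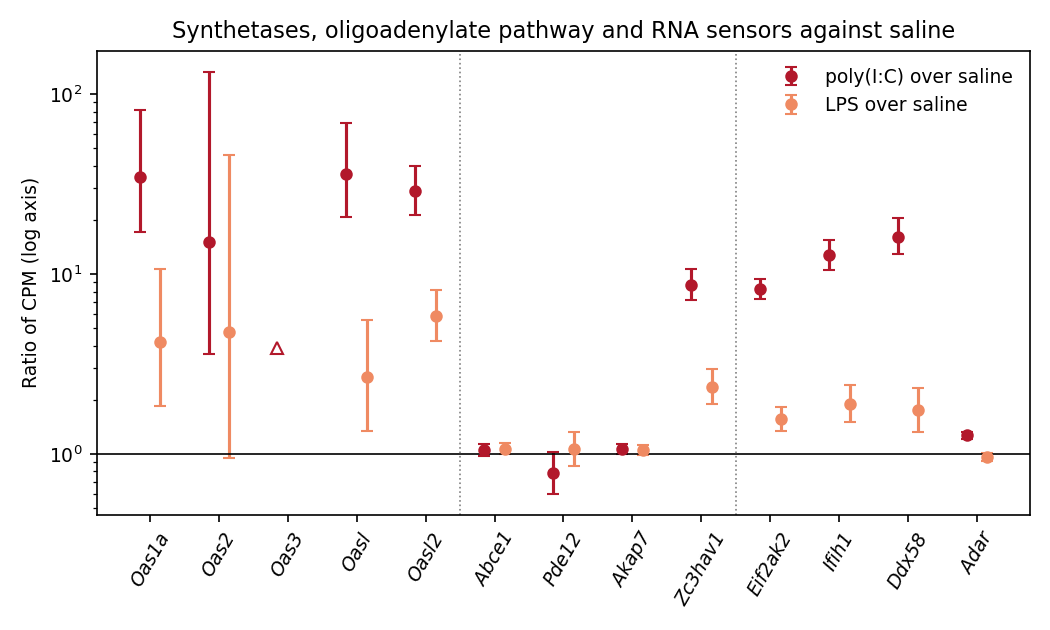
Ratio of CPM on a log axis, poly(I:C) over saline at the left and LPS over saline at the right of each gene, for the 5 synthetases, 4 other genes of the oligoadenylate pathway and 4 RNA sensors or editors, divided by dotted lines. Bars are exact 95% intervals for counting error, and the open triangle is the lower bound for Oas3. Abce1, Pde12 and Akap7 lie near 1, while the synthetases plotted lie above it, with Oas3 shown for poly(I:C) alone and the LPS interval of Oas2 reaching below 1.

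Nuclei with a member UMI were a minority in every library. After poly(I:C) 861 of 15001 barcodes (5.74%, 5.37 to 6.12%) had at least 1, after LPS 253 (2.26%, 1.99 to 2.55%) and after saline 68 (0.267%, 0.208 to 0.339%). At least 2 different members were found in 154, 10 and 0 barcodes, and 1 barcode held at most 10, 4 and 2 member UMIs. Depth differed between libraries, so each barcode was also thinned to 1000 UMIs, which left out 4763, 1901 and 10150 shallower barcodes. The shares were then 2.87%, 0.902% and 0.150%, in the same order. No brain cell class is known to lack these genes, so no class gives a background for free RNA in the suspension.

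The gates placed most nuclei among neurons but less of the family's RNA. With at least 500 genes per nucleus, neurons were 81.7%, 79.4% and 76.9% of barcodes and held 36.5%, 30.8% and 62.3% of family UMIs after poly(I:C), LPS and saline. Other gated classes were 1.01%, 7.70% and 1.58% of barcodes and held 11.5%, 36.3% and 8.70% of family UMIs. Barcodes outside every gate, those under the minimum among them, held the remaining 52.0%, 32.9% and 29.0%. Over every deposited barcode, those outside every gate still held 36.2%, 27.7% and 23.2%. After poly(I:C) many non-neuronal nuclei had fewer than 500 genes. The classes were therefore also built from every deposited barcode, without the 500-gene minimum, and the values of non-neuronal classes below are from those.

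Neurons of all 4 groups had a higher family level after poly(I:C). With the 500-gene minimum, inhibitory neurons, gated by Gad1, Gad2 and like markers, had 158, 37 and 17 family UMIs after poly(I:C), LPS and saline in 4004, 3289 and 6693 nuclei. Those counts are 27.2, 4.07 and 1.62 CPM, with ratios to saline of 16.8 (10.1 to 29.5) and 2.51 (1.38 to 4.76). Striatal projection neurons had 23.0, 3.61 and 1.28 CPM, with ratios of 18.0 (9.93 to 35.7) and 2.81 (1.39 to 6.07). Excitatory neurons had 20.5, 2.49 and 1.77 CPM, with ratios of 11.5 (5.58 to 27.6) and 1.41 (0.559 to 3.83), and the LPS interval includes equality. Neurons of no assigned type had 24.4, 2.23 and 0.866 CPM, with ratios of 28.2 (12.5 to 78.6) and 2.57 (0.847 to 8.62). After poly(I:C) the highest class, inhibitory neurons (23.1 to 31.8 CPM), and the lowest, excitatory neurons (16.2 to 25.4 CPM), had overlapping intervals. The ratio over all neurons was 17.5 (12.8 to 24.5) for poly(I:C) over saline, 2.39 (1.65 to 3.53) for LPS over saline and 7.31 (5.82 to 9.26) for poly(I:C) over LPS. In this gate 4 of 4 classes that had at least 50 nuclei in both libraries were at least 2-fold higher after poly(I:C) than after saline, and 4 of 7 after LPS (endothelial nuclei and the neurons other than excitatory). In a stricter gate, with more than 80% of marker UMIs from 1 class, all 4 neuronal classes remained over 2-fold after poly(I:C), at 9.08 in inhibitory neurons and 10.7 to 15.0 in the others. After LPS none of the 4 then reached 2-fold, at ratios of 1.08 to 1.80 with intervals that include equality. Endothelial markers stood at 46.9, 40.8 and 55.8 CPM in neurons after poly(I:C), LPS and saline, and their part in the neuronal values was not tested.

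A member UMI was found in 3.20%, 1.06% and 0.254% of inhibitory neurons after poly(I:C), LPS and saline, at median depths of 1251, 2414 and 1321 UMIs. Thinned to 1000 UMIs, with 1126, 169 and 1902 nuclei left out, the shares were 2.71%, 0.353% and 0.209%. In excitatory neurons thinned shares of 0.115% after LPS and 0.183% after saline rested on 2 and 4 nuclei, so no order can be read from them.

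Endothelial nuclei, gated by Ptprb, Mecom, Erg, Cdh5 and other vessel-lining markers, had the family at a far higher level than neurons in all 3 libraries. Over every deposited barcode, they had 148 family UMIs in 91 nuclei after poly(I:C), 56 in 101 after LPS and 6 in 151 after saline. Those counts are 2476, 539.4 and 49.0 CPM, against 25.0, 3.32 and 1.37 CPM in neurons. Endothelial nuclei thus stood 99.0-fold (81.8 to 119.1) above neurons after poly(I:C), 162.3-fold (114.2 to 228.9) after LPS and 35.9-fold (12.5 to 84.3) after saline, from median depths of 590, 873 and 700 UMIs in endothelial nuclei and 1332, 2759 and 1238 in neurons. The endothelial ratio of poly(I:C) over saline was 50.5 (22.6 to 139.8), whose interval overlaps the neuronal one of 18.3 (13.5 to 25.4). In the 500-gene gate the same ratios were 69.3 (26.2 to 259.6) in endothelial nuclei, against 17.5 (12.8 to 24.5) in neurons, and did not overlap, so the overlap depends on the gate. The endothelial ratio of LPS over saline was 11.0 (4.75 to 31.2), whose interval lies above the neuronal one of 2.43 (1.68 to 3.55). In the 500-gene gate 34 of 40 endothelial nuclei (85.0%, 70.2 to 94.3%) had a member UMI after poly(I:C), 43 of 93 (46.2%) after LPS and 4 of 113 (3.54%) after saline, against 3.19%, 0.943% and 0.220% of neurons. All 11 endothelial markers were counted in the gated nuclei of each library, at 11190, 13260 and 12190 summed CPM. Mural markers came with them at 2944, 3409 and 3474 CPM, and the general neuronal list at 451.6, 491.2 and 801.1 CPM.

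Other non-neuronal classes lay between neurons and endothelial nuclei after poly(I:C), or near the endothelial level. Mural cells, which wrap the vessels, had 21, 4 and 0 family UMIs in 17, 9 and 22 nuclei after poly(I:C), LPS and saline, which is 2180, 631.2 and 0 CPM and at least 10.9-fold higher after poly(I:C) than after saline. Endothelial markers were not summed in this gate, and the part of endothelial RNA in its values was not tested. Choroid plexus epithelium, which makes cerebrospinal fluid, had 20, 10 and 0 UMIs in 24, 37 and 18 nuclei, or 1718, 342.8 and 0 CPM, and was at least 7.59-fold higher after poly(I:C) than after saline. Astrocytes had 27, 18 and 0 UMIs in 111, 313 and 149 nuclei, or 313.8, 62.4 and 0 CPM, and were at least 11.6-fold higher after poly(I:C) and at least 2.31-fold higher after LPS. In the 500-gene gate 45, 241 and 69 astrocytes held 92.3, 64.7 and 0 CPM, which gave lower bounds of 2.15 for poly(I:C) and 1.51 for LPS over saline, so the astrocyte value after poly(I:C) rested on shallow nuclei. Oligodendrocytes, the myelin-forming cells, had 21, 3 and 0 UMIs in 171, 718 and 312 nuclei, or 209.9, 5.42 and 0 CPM. They were at least 14.8-fold higher after poly(I:C) than after saline and 38.7-fold higher after poly(I:C) than after LPS (11.6 to 202.9). In the 500-gene gate 6 of 33 oligodendrocytes had a member UMI after poly(I:C), 3 of 348 after LPS and 0 of 114 after saline. Differentiating oligodendrocytes had 18, 0 and 0 UMIs in 56, 50 and 37 nuclei and were at least 9.65-fold higher after poly(I:C) than after LPS. In the 500-gene gate 10 of these nuclei after poly(I:C) and 43 after LPS held 3 and 0 UMIs, too few for a ratio. In a gate for oligodendrocyte precursors added after the data were seen, 17, 0 and 0 UMIs were found in 41, 55 and 34 nuclei. Precursor markers stood there at 7490, 7225 and 7438 CPM. Inhibitory neuron markers stood at 5024, 6812 and 6574 CPM, with 8 of those 10 markers at 0 in each library. Differentiating oligodendrocyte markers stood at 4699, 4113 and 4079 CPM. The part of other cells in this count was not tested. In a like gate on microglial and macrophage markers, 8, 4 and 0 UMIs were found in 21, 33 and 8 nuclei. That gate held 12190 CPM of red-cell markers beside 8380 CPM of microglial ones after poly(I:C), so its poly(I:C) count is not given to a cell type, whereas after LPS it held 0 and 11040 CPM. Ependymal cells, which line the ventricles, had 5, 10 and 0 UMIs in 17, 72 and 34 nuclei, and their poly(I:C) over LPS ratio of 2.63 (0.705 to 8.44) includes equality.

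Only 8, 4 and 1 barcodes passed the neutrophil gate after poly(I:C), LPS and saline, with 28, 4 and 0 family UMIs. Their poly(I:C) level of 5763 CPM was the highest of any gate, but the same 8 barcodes carried all 11 endothelial markers at 6174 summed CPM, so they cannot be read as neutrophils alone.

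**Figure D3:**
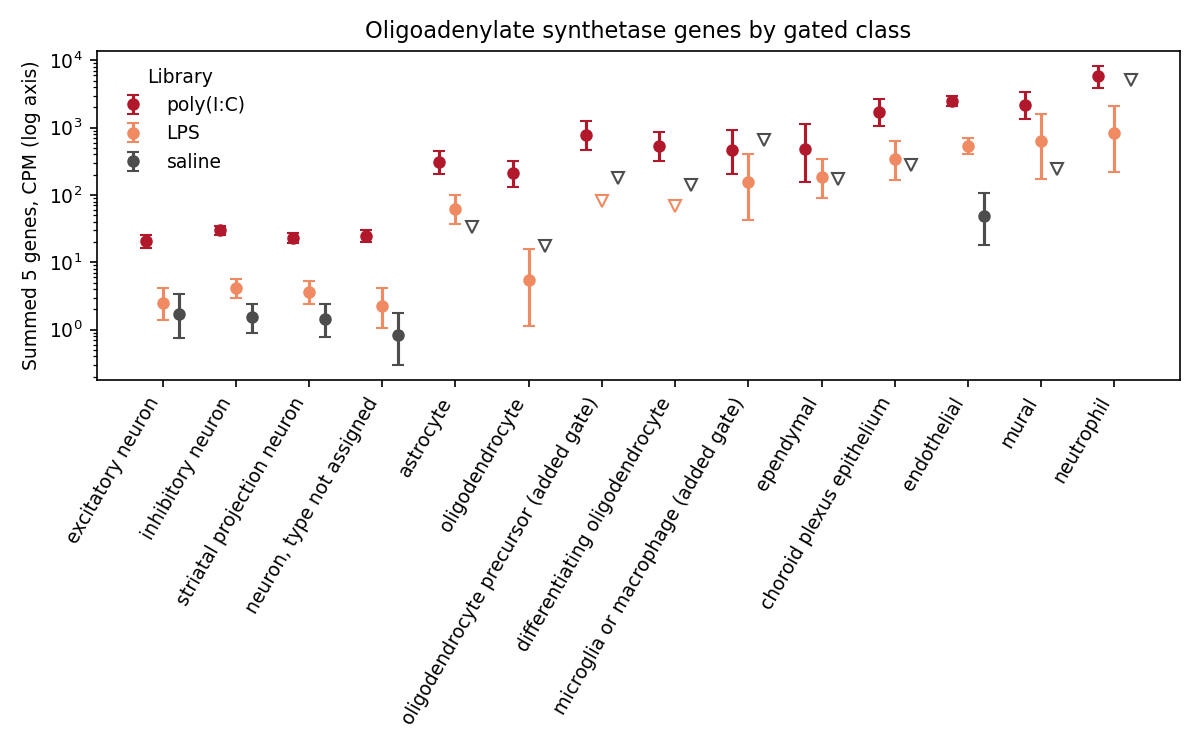
Summed CPM of the 5 members in each gated class on a log axis, every deposited barcode, for poly(I:C), LPS and saline from left to right. Points are library sums, bars are exact 95% Poisson intervals, and open triangles mark the upper limit where no UMI was counted. Neuronal classes lie near 20 to 30 CPM after poly(I:C), and endothelial nuclei near 2476 CPM.

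Barcodes were also divided by their number of endothelial marker UMIs, a division added after the data were seen. The markers are those of the endothelial gate, and every nucleus of that gate falls in the bin of 3 or more. The bins are therefore not separate support for the gated values. After poly(I:C) the family stood at 30.8 CPM in barcodes with 0 such UMIs, 84.3 with 1, 518.4 with 2 and 1223 with 3 or more. After LPS it stood at 5.05, 6.53, 29.8 and 231.7 CPM, and after saline at 1.29, 1.13, 10.9 and 24.3 CPM. Barcodes with 3 or more endothelial UMIs were 329 after poly(I:C), 306 after LPS and 680 after saline and held 39.1%, 46.6% and 31.9% of the family UMIs. Barcodes with 0 endothelial UMIs still held 610, 136 and 42 family UMIs, so the higher level after poly(I:C) was also present where no endothelial marker was counted.

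**Figure D4:**
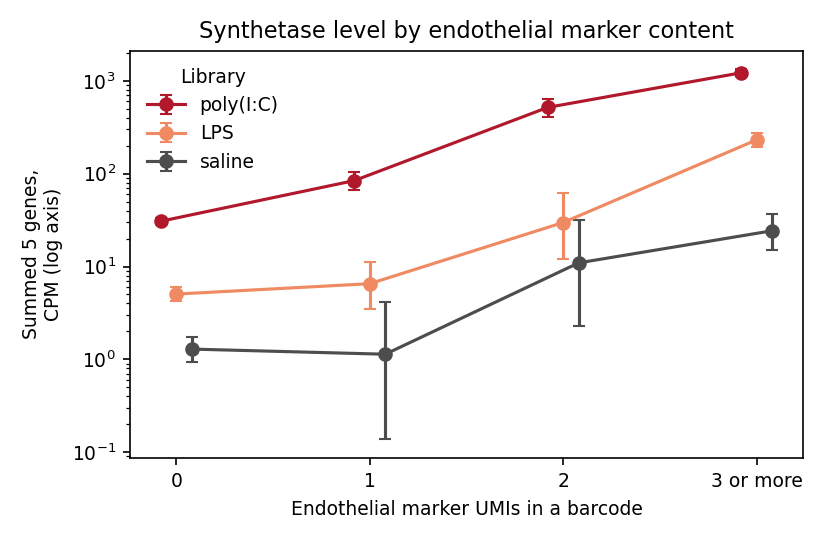
Summed CPM of the 5 members on a log axis against the number of endothelial marker UMIs in a barcode (0, 1, 2, 3 or more), for the poly(I:C), LPS and saline libraries. Points are sums over barcodes, bars are exact 95% Poisson intervals, and lines join the points of a library. The poly(I:C) line lies above LPS, and LPS above saline, in the bins of 0 and of 3 or more.

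The members' proportions differed between classes after poly(I:C). In the 500-gene gate, Oasl made up 36 of 92 family UMIs in endothelial nuclei (39.1%, 29.1 to 49.9%), against 72 of 464 in neurons (15.5%, 12.3 to 19.1%), and these intervals do not overlap. The share over every deposited barcode was 38.5% (30.6 to 46.9%) in endothelial nuclei, against 15.5% (12.4 to 19.0%) in neurons. Mural cells had 8 Oasl UMIs of 21, and oligodendrocytes 10 of 21, whereas astrocytes had 2 of 27 and choroid plexus epithelium 2 of 20. Oas2 and Oas3 had 0 of the 148 endothelial family UMIs after poly(I:C), with an upper 95% limit of 2.46% each. The part of free RNA in the neuronal level was not tested.

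After LPS this difference was not seen, with Oasl at 6 of 56 endothelial UMIs (10.7%, 4.04 to 21.9%), against 9 of 91 in neurons (9.89%, 4.62 to 17.9%). Within endothelial nuclei Oasl was 16.5-fold higher after poly(I:C) than after LPS (7.13 to 46.8), while Oasl2 was 2.86-fold higher (1.95 to 4.23), and these intervals do not overlap. Oas1a in endothelial nuclei was 7.38-fold higher (2.41 to 30.1). In neurons Oasl was 11.8-fold (5.90 to 26.8) and Oasl2 6.73-fold (5.16 to 8.88) higher after poly(I:C) than after LPS, with overlapping intervals. The endothelial library sums thus held 57, 6 and 1 UMIs of Oasl and 74, 45 and 5 of Oasl2 after poly(I:C), LPS and saline.

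**Figure D5:**
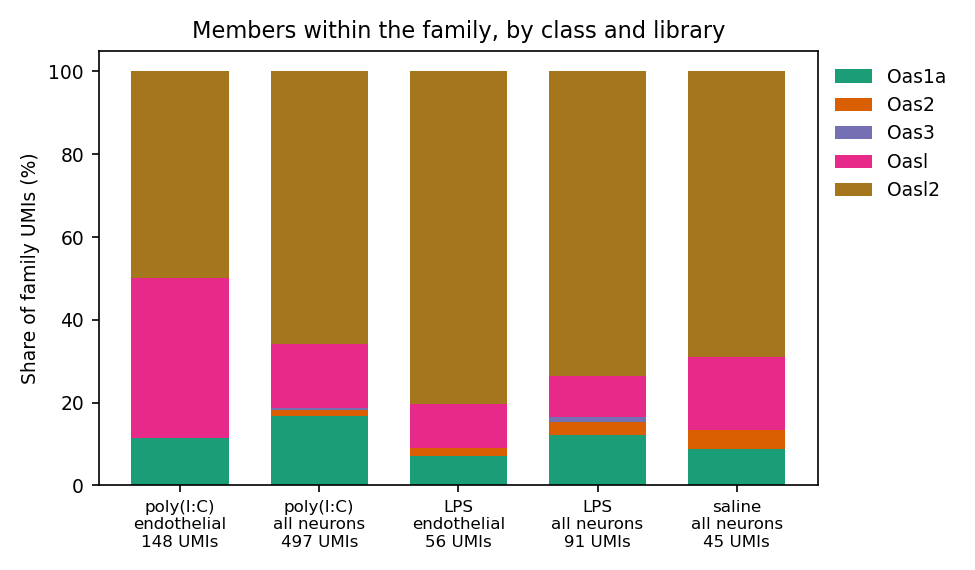
Share of each member in the family UMIs, in percent, in endothelial nuclei and in neurons of the poly(I:C) library, the same after LPS, and neurons after saline, over every deposited barcode. Bar labels give the family UMIs behind each bar. Oasl takes 38.5% in endothelial nuclei after poly(I:C) and 15.5% in neurons.

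After poly(I:C), the difference between endothelial nuclei and neurons was larger for Oasl, Oasl2 and Oas1a than for 3 RNA sensors. Endothelial over neuronal level was 246.0 (171.5 to 351.0) for Oasl, 75.2 (57.6 to 97.1) for Oasl2 and 68.1 (37.9 to 115.7) for Oas1a. It was 22.9 (15.9 to 32.0) for Ddx58, 16.0 (10.7 to 23.1) for Ifih1 and 11.4 (8.16 to 15.5) for Eif2ak2, all below the intervals of those synthetases. Irf7, at 242.8 (186.4 to 315.2), overlapped Oasl. Zc3hav1, at 50.9 (36.3 to 69.8), lay below Oasl but overlapped Oasl2 and Oas1a. After LPS Oasl2, at 177.1 (118.6 to 262.3), lay above the intervals of all 3 sensors, of which Ddx58 was highest at 56.5 (27.6 to 106.7), while the intervals of Oasl (51.5 to 553.1) and Oas1a (22.3 to 323.6) overlapped that of Ddx58. After saline Oasl2, at 43.4 (13.2 to 112.5), overlapped Ifih1 at 30.3 (13.4 to 60.3) and Ddx58 at 27.4 (8.53 to 68.5). Zc3hav1 stood at 66.6 (40.7 to 105.1) after LPS, below the interval of Oasl2. After saline it stood at 141.9 (76.9 to 254.0), which overlaps that of Oasl2.

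Over the 4 neuronal classes and 3 libraries, which gives 12 points, genes were ranked by how closely their log2(CPM + 1) followed that of the summed family. Among 12464 genes with at least 200 UMIs over all barcodes of the 3 libraries, the 8 with the largest Pearson r ran from 0.983 to 0.990. They were Sp110, a nuclear body protein (r = 0.990), Usp18 (0.989), Stat4, a signalling transcription factor (0.987), the chemokine Cxcl10 (0.986), Parp9 (0.985), a feature with no gene symbol (0.985), the ubiquitin ligase Rnf213 (0.983) and Ifit2 (0.983). Over all barcodes, and not neurons alone, Sp110 had 422, 150 and 85 UMIs after poly(I:C), LPS and saline, and Cxcl10 had 2632, 260 and 0. The points share the 3 libraries and their depth, so the likeness describes them and carries no test.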

How the data were processed

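Nuclei were isolated from rat brain on an iodixanol gradient and libraries made with 10x Genomics 5' chemistry, per the labels. Raw UMI counts of each feature in each barcode were deposited, not normalised by the authors, and were made with Cell Ranger 7.0.0 on mRatBN7.2 per the submitters' processing notes. The annotation release and the cell-calling settings are not given in the sources used here.

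UMIs were divided by library or class totals (CPM). Ratios carry exact conditional (Clopper-Pearson) 95% intervals, levels exact Poisson and shares exact Clopper-Pearson ones. All cover counting error only, so no test or p-value was computed. A ratio against 0 UMIs is a bound with 3 UMIs in that library or class sum, and is not given where the other count is 3 or fewer. Counts of genes use a 2-fold threshold and at least 10 UMIs in the 2 libraries together.

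Nuclei with at least 500 genes and at most 5% mitochondrial UMIs were gated: at least 3 UMIs from at least 2 markers of a class and more than 50% of all marker UMIs. Counts of classes past 2-fold used those with at least 50 nuclei in both libraries. Ratios of single classes are also given below that number, with their nuclei stated. Neurons were divided by the excitatory, inhibitory and striatal lists. Of 163 markers on 17 lists, 151 were matched to a feature. Classes without the 500-gene minimum keep the mitochondrial limit, except the added gates for microglia and precursors. Those gates need 2 UMIs from 2 markers and have neither that limit nor the 50% rule. Their own marker UMIs must exceed those of astrocytes, of oligodendrocytes and of endothelial nuclei. Neuronal marker UMIs may be up to 2 times their own. No doublet caller was run; the purity rule, and an alternative without the 5% of barcodes with most UMIs, bear on doublets. Named genes are the 5 members, other Oas features, genes of the fixed pathway, sensor and signalling lists, the 4 interferon-stimulated genes with most UMIs, and the 8 genes most like the family. Rsad2, Mx1 and Gbp2 of the interferon-stimulated list are also named, for their high ratios. A gene of the fixed oligoadenylate pathway list is not reported here, and the counts for that list leave it out. The members, markers and lists were chosen with earlier results of these data known. The gates for microglia and precursors, the endothelial UMI bins, the sum of 12 Oas features and the exclusion of shared barcodes were added after seeing the data.

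Promoters were searched for the motif in the RefSeq table. Python 3.11.15, numpy 2.4.6, scipy 1.17.1, pandas 2.3.3 and matplotlib 3.10.9 were used, and the ratio routine was tested on simulated data.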

Additional observations from a re-analysis of the deposited data

Results flagged for a closer look

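Family UMIs were also found in barcodes that the class comparisons with the 500-gene minimum did not use. Among barcodes under 500 genes or over 5% mitochondrial UMIs, the summed family stood at 344.3 CPM after poly(I:C) and 57.4 CPM after LPS, against 1.76 CPM after saline. Those barcodes held 347, 24 and 4 family UMIs after poly(I:C), LPS and saline. Kept nuclei outside every gate held the family at 354.6 CPM after poly(I:C) and 63.2 CPM after LPS, against 10.0 CPM after saline, from 313, 72 and 16 UMIs. After poly(I:C) and LPS both sets were higher than neurons, at 24.0 and 3.29 CPM, and they were noticed because those comparisons leave them out.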

How the results depend on the processing

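No alternative turned a called direction. The poly(I:C) over saline family ratio of 30.6 was 23.2 in nuclei with at least 500 genes and 19.6 with at least 1000 genes. The LPS over saline ratio of 5.05 was 2.47 with at least 1000 genes, 9.60 per barcode and 3.48 without Oasl2. The poly(I:C) over LPS ratio of 6.07 was 4.97 with at least 500 genes, 7.92 with at least 1000, 3.25 per barcode and 9.87 without Oasl2. The cause of these shifts was not tested. Classes at least 2-fold higher, 4 in each main comparison, were 7 of 7 for poly(I:C) over saline and 8 of 8 for poly(I:C) over LPS without the 500-gene minimum. Most astrocytes and differentiating oligodendrocytes counted there after poly(I:C) had fewer than 500 genes. With that minimum the astrocyte ratio of poly(I:C) over LPS was 1.43 (0.408 to 4.07). For LPS over saline they were 2 of 4 with at least 1000 genes, 0 of 4 with more than 80% of marker UMIs and 2 of 7 without Oasl2. Genes at least 2-fold apart, 1249, 1067 and 1014 for poly(I:C) over saline, LPS over saline and poly(I:C) over LPS, were 2054, 1992 and 2016 with a minimum of 1 UMI and 468, 368 and 327 with 50. Of the values for the whole family and the counts above, 40 kept within their limits and 20 moved. Of 215 values of single members and classes, 195 moved by less than their counting interval and 20 by more. For LPS over saline, 3 values or lower bounds without a call fell below 1, namely excitatory neurons thinned to 1000 UMIs (0.942, 0.138 to 5.57) and, without Oasl2, the bounds for excitatory neurons and astrocytes. Median-ratio scaling shifted log2 ratios by 0.03 to 0.07. No paired analysis was possible because each group is 1 pooled library. Depth limits Oas2, Oas3 and every class with fewer than 10 family UMIs.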

Other observations

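Red-cell gated barcodes also carried family UMIs, with 23 in 19 barcodes after poly(I:C), 9 in 13 after LPS and 2 in 72 after saline. Those counts are 1172, 475.4 and 29.1 CPM, a ratio of 40.2 (9.94 to 352.1) for poly(I:C) over saline and 16.3 (3.38 to 155.3) for LPS over saline. In the 500-gene gate these ratios were 21.3 (4.64 to 197.3) and 13.0 (2.59 to 125.5). A marker of the general neuronal list was counted in 52.6%, 38.5% and 54.2% of these barcodes after poly(I:C), LPS and saline. The general, excitatory, inhibitory and striatal lists together stood at 3974, 2272 and 3189 CPM. That sum covers more markers than the neuronal marker values given above. The cells these barcodes came from are thus not settled. The receptor subunit Ifnar1 stood further below saline in endothelial nuclei than in neurons. In endothelial nuclei over every deposited barcode, Ifnar1 had 21, 54 and 130 UMIs after poly(I:C), LPS and saline, with ratios to saline of 0.331 (0.198 to 0.527) and 0.489 (0.350 to 0.677), against 0.830 (0.758 to 0.907) and 0.897 (0.828 to 0.971) in neurons. The endothelial intervals lie below the neuronal ones for both agents.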
